A study of Mus musculus with 18 samples.

Results

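The V1 sector of the vacuolar ATPase was followed through 8 genes, Atp6v1a, Atp6v1b2, Atp6v1c1, Atp6v1d, Atp6v1e1, Atp6v1f, Atp6v1g1 and Atp6v1h. These are the subunit genes listed for the sector, chosen by name with earlier results of these data known, and each was read from its brightest probe set on the array. All 8 passed the filter on dim signal and were among the 12257 genes tested. RAW cells, labelled as a macrophage cell line of the mouse, were kept in medium or given R848, a synthetic ligand of Toll-like receptor 7. Stimulated cells received R848 alone, R848 with apilimod, or R848 with API09, which the series names as an inactive analog of apilimod. R848 is given at 0.1 mM, which is high for such an agonist and may be an error of unit, and both compounds are given at 1 uM. RNA was taken from medium at 0 h (2 arrays) and from medium, R848, R848+apilimod and R848+API09 at 1, 3, 7 and 22 h (1 array each), which makes 18 arrays. No array holds apilimod without R848.

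The vacuolar ATPase is a rotary proton pump that acidifies lysosomes, endosomes and phagosomes. Its V1 sector lies in the cytosol and hydrolyses ATP, and its V0 sector lies in the membrane and carries the protons. In V1, the A and B subunits form the catalytic head, D and F form the turning central stalk, and C, E, G and H form the peripheral stalks and the regulatory contact with V0. V1 can detach from V0 and bind it again, which is a known way of regulating the pump. Macrophages depend on the pump to acidify phagosomes and to activate lysosomal hydrolases. Apilimod inhibits PIKfyve, the lipid kinase that makes a phosphoinositide needed for endosome and lysosome membrane traffic.

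The array values are deposited intensities on a linear scale, and the number of arrays limits their precision. Nothing in the labels ties the arrays to separate cultures, so p-values reflect only how far these arrays spread, which may be technical. Median intensity per array ran from 17.5 to 19.2, and the upper quartile from 110.5 to 118.6 on 15 arrays. The 3 R848-stimulated arrays at 22 h had lower upper quartiles, 104 with R848 alone, 101 with apilimod and 87.0 with API09. All 9 macrophage markers examined were above the filter level of 18.1 on every array, the lowest value being 97.5. Of 20 markers of T cells, B cells, fibroblasts, epithelium, endothelium, neutrophils and kidney intercalated cells, 12 were at or below that level on all 18 arrays and the highest value of any was 61.0. The summed macrophage markers were 49887 and 49731 in medium at 0 h. At 7 h they were 40095 with apilimod, below 44029 with R848 alone, 43006 with API09 and 46660 in medium, and 4 of the 9 were called lower and 1 higher with apilimod than in the controls given R848. At 22 h they were 39764 with apilimod, 40848 with R848 alone, 39158 with API09 and 43657 in medium, with 3 called lower and 1 higher. Of all genes, 9.81% were called lower at 7 h and 14.3% at 22 h. The part of these marker differences in the results was not tested. In such bulk RNA, fewer cells of a type and less RNA per cell cannot be told apart.

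Because the MiT/TFE transcription factors are known to bind CACGTG-type motifs near the start sites of many vacuolar ATPase genes, the RefSeq start-site windows were searched for that motif. A window of 300 bases, 250 before and 50 after the start, was held for 4 of the 8 genes, Atp6v1a, Atp6v1d, Atp6v1e1 and Atp6v1f. Those of Atp6v1b2, Atp6v1c1, Atp6v1g1 and Atp6v1h were not analysed here. Both searched motifs, CACGTG and its longer form TCACGTGA, read the same on either strand, and every match to the longer form is also a match to the shorter. Of the 4 windows, 1 held each motif, that of Atp6v1a. Over all 32851 windows of the table the share was 7.15% for CACGTG and 0.974% for TCACGTGA. The match lies on chromosome 16 of GRCm38.p6, minus strand, within chr16:44139373-44139402, at positions -132 to -125 from the listed start. That start is not the outer end of the gene, so it is 1 of several annotated starts. The stretch is printed with the longer motif in capitals.
Atp6v1a: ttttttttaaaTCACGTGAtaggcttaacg
The match is a description of these letters. The array data hold no measure of binding at this place.

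The main question of the design is what apilimod changed in R848-stimulated cells. Within each hour the R848+apilimod array was set against the 2 arrays of R848 alone and R848+API09, called the R848 controls, on the scale of log2 of the intensity plus 16. The addition understates a fold of dim genes, and strongly so for intensities near or below 16. At 1 h none of the 8 genes was called higher or lower. At 3 h 5 were higher with apilimod, at 7 h 7 and at 22 h all 8, and none was lower at any hour. The share of all 12257 genes called higher was 0%, 5.07%, 9.81% and 20.2% at the 4 hours, and the share called lower from 3 h on was 4.12%, 9.81% and 14.3% (Benjamini-Hochberg adjusted p under 0.05 in limma, two-sided). The median difference of the 8 genes was 0.05, 0.42, 0.77 and 0.73 at the 4 hours, beside 0.00, -0.03, -0.02 and 0.03 for all genes tested. At 1 h the differences ran from 0.01 to 0.14, each with an adjusted p of 1.00. At an unadjusted p under 0.05 limma counted 0 of the 8 genes and 165 of all genes (1.35%) at that hour.

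**Figure D1:**
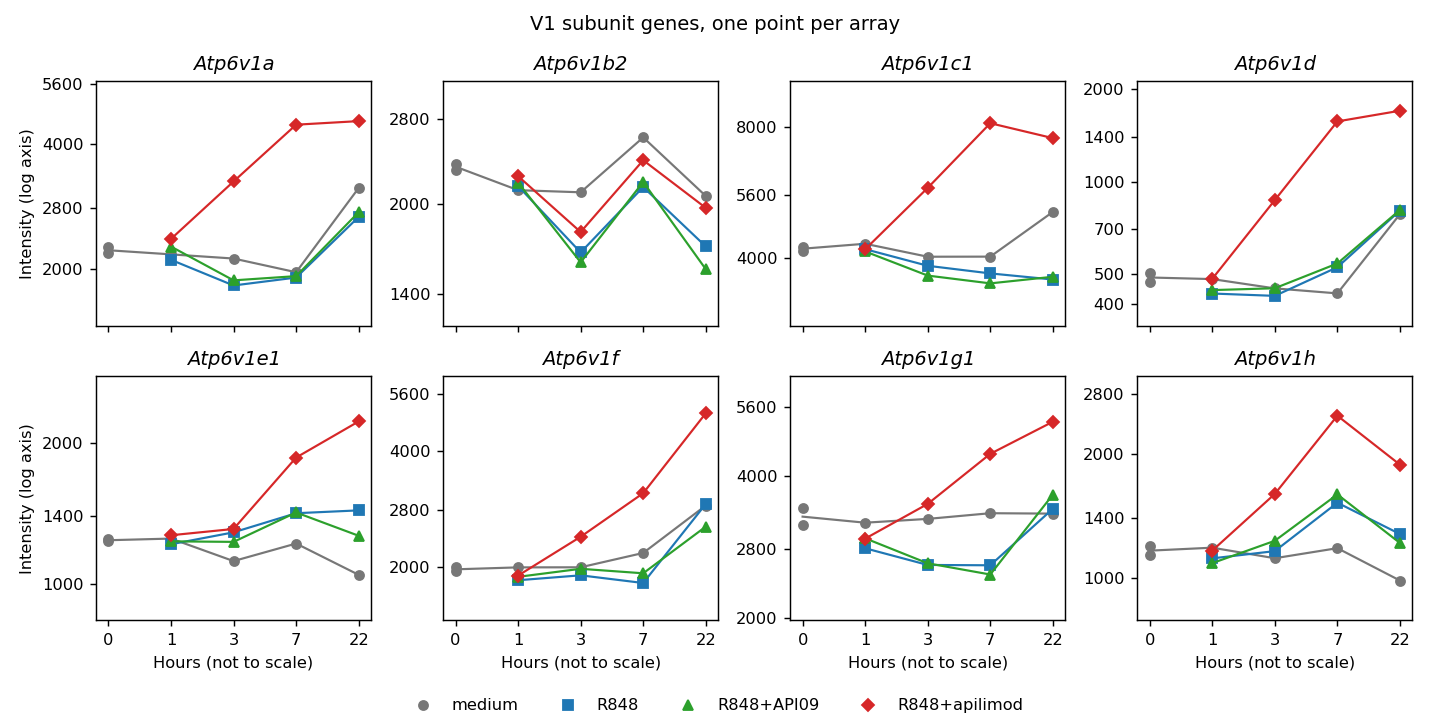
Deposited intensity (vertical axis, log scale) of each V1 gene against hours of culture (0, 1, 3, 7 and 22 h), with 1 point per array for medium, R848, R848+apilimod and R848+API09. The R848+apilimod point lies above both R848 controls for all 8 genes at 3, 7 and 22 h, by the least for Atp6v1e1 at 3 h and for Atp6v1b2 at 7 and 22 h, while R848 and R848+API09 lie close together.

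**Figure D2:**
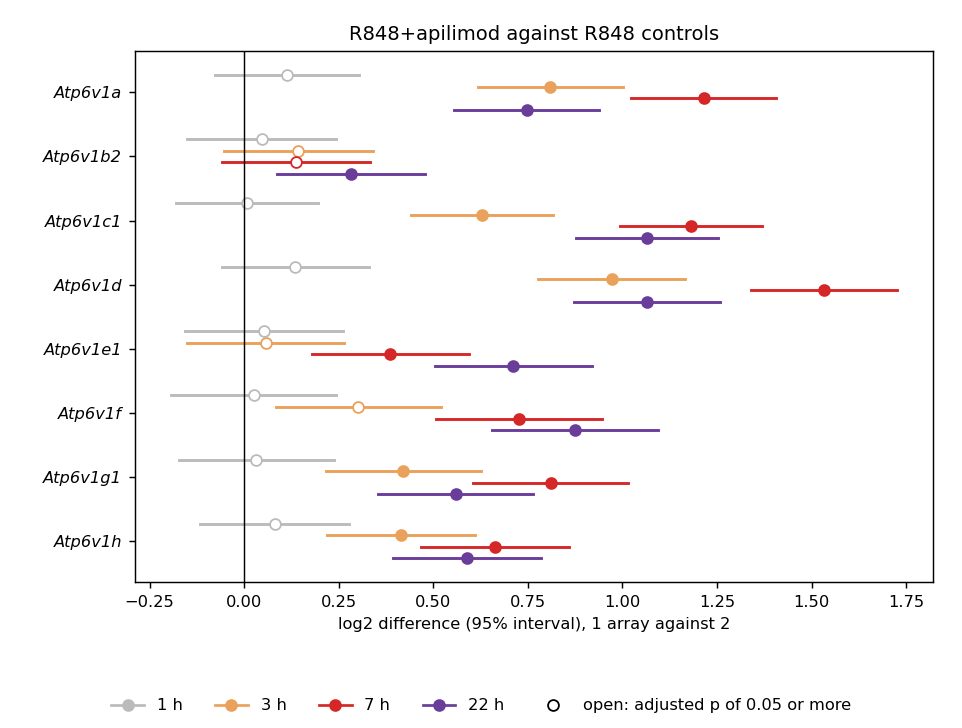
Log2 difference of R848+apilimod from the R848 controls of the same hour (1 array against 2) for each V1 gene at 1, 3, 7 and 22 h, with 95% intervals from limma; open points have an adjusted p of 0.05 or more. Atp6v1d reached 1.53 at 7 h, and Atp6v1b2 stayed between 0.05 and 0.28.

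The catalytic head held an unequal pair, Atp6v1a and Atp6v1b2. Atp6v1a encodes the A subunit, which carries the catalytic ATP sites. Its intensity with apilimod was 2358 at 1 h, 3247 at 3 h, 4455 at 7 h and 4544 at 22 h. With R848 alone the same hours gave 2099, 1819.8, 1902 and 2666, and with API09 2259.9, 1872, 1917 and 2737. From 3 h on the apilimod array stood clear of both controls, and it also stood above the highest medium array of the series, 3132. The difference from the controls was 0.81 ± 0.09 (SE, 1 array against 2) at 3 h, 1.22 ± 0.09 at 7 h, a 2.32-fold level, and 0.75 ± 0.09 at 22 h, with adjusted p of 9.1e-05, 1.7e-06 and 6.7e-05. All 3 were called.

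Atp6v1b2 encodes the brain-type B subunit, the widely expressed B isoform, which pairs with A in the head. With apilimod it measured 2234 at 1 h, 1791 at 3 h, 2379 at 7 h and 1970.2 at 22 h. R848 alone gave 2148, 1652, 2139.6 and 1691, and API09 2178, 1588, 2183 and 1546. The apilimod array was above both controls at every hour, yet below the medium arrays of 3, 7 and 22 h, which were 2096, 2604 and 2065. In the second probe set by mean it was also below medium at 3 and 7 h, but above it at 22 h, 850 against 785. The difference was 0.14 ± 0.09 at 3 h (95% interval -0.05 to 0.34, adjusted p 0.474) and 0.14 ± 0.09 at 7 h (-0.06 to 0.33, adjusted p 0.369), so neither was larger than the spread allows. At 22 h it was 0.28 ± 0.09 (0.09 to 0.48, adjusted p 0.0298) and passed. That call was lost without either medium array of 0 h (0.28, adjusted p 0.056 in both cases).

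Both genes of the central stalk rose with apilimod. Atp6v1d encodes the D subunit, the shaft of the rotor, and had the largest difference of the 8 genes at 3 and 7 h. Its intensity with apilimod was 482 at 1 h, 871 at 3 h, 1573 at 7 h and 1705 at 22 h. R848 alone gave 432, 424, 526 and 805, and API09 443, 449, 541 and 809. From 3 h on the apilimod array exceeded all 14 arrays without apilimod, whose highest was 809. The difference was 0.97 ± 0.09 at 3 h (95% interval 0.78 to 1.16, adjusted p 2.5e-05), 1.53 ± 0.09 at 7 h (1.34 to 1.73, adjusted p 3.2e-07) and 1.06 ± 0.09 at 22 h (0.87 to 1.26, adjusted p 5.4e-06). The 7 h value is a 2.89-fold level.

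Atp6v1f encodes the F subunit, which sits at the end of the rotor beside D. Intensities with apilimod were 1898 at 1 h, 2393 at 3 h, 3104 at 7 h and 5001 at 22 h. R848 alone gave 1846, 1901, 1816 and 2910.0, and API09 1884, 1976, 1924 and 2542. The apilimod array was highest among the stimulated arrays at each hour. The growth of its difference from 3 to 7 h did not pass (0.43, adjusted p 0.146). The difference was 0.30 ± 0.10 at 3 h (adjusted p 0.0978), which did not pass, then 0.73 ± 0.10 at 7 h (adjusted p 0.00027) and 0.87 ± 0.10 at 22 h (adjusted p 5.6e-05), which did. Without the API09 array of 22 h, the 3 h difference of 0.30 passed with an adjusted p of 0.015.

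The peripheral stalk held 4 genes with unlike time courses. Atp6v1c1 encodes the widely expressed C subunit, which joins the stalks to V0 and is released when the sectors come apart. The apilimod arrays gave 4192 at 1 h, 5801 at 3 h, 8166 at 7 h and 7547 at 22 h. R848 alone gave 4195, 3842, 3689.7 and 3572, and API09 4144, 3648, 3500.4 and 3625. The 3 stimulated arrays were nearly level at 1 h, and the apilimod array was the highest of its hour from 3 h on. Both controls at 22 h lay below all 6 medium arrays, which ran from 4030.3 to 5109. The third probe set by mean gave the same, with controls of 823 and 804. In the second they were 1891 and 1729, below medium at 22 h (2080) but above medium at 3 h (1655). The difference was 0.63 ± 0.09 at 3 h, 1.18 ± 0.09 at 7 h (2.27-fold) and 1.07 ± 0.09 at 22 h, with adjusted p of 0.00051, 1.9e-06 and 4.4e-06.

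Atp6v1g1 encodes the widely expressed G subunit, which pairs with E in the stalks. Its intensity with apilimod was 2946 at 1 h, 3489 at 3 h, 4451 at 7 h and 5203 at 22 h, against 2811, 2592, 2588 and 3407 with R848 alone. API09 gave 2951, 2613, 2474 and 3649. At 3 h the apilimod array stood near the medium array, 3243, and the controls were below it, whereas at 7 and 22 h it was above all arrays without apilimod. The difference was 0.42 ± 0.09 at 3 h (adjusted p 0.0136), 0.81 ± 0.09 at 7 h (adjusted p 7.4e-05) and 0.56 ± 0.09 at 22 h (adjusted p 0.00082). The 3 h call did not hold with R848 alone as the control (0.43, adjusted p 0.066) or API09 alone (0.41, adjusted p 0.075).

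Atp6v1h encodes the H subunit, which is needed for activity and holds back ATP hydrolysis in the detached sector. On the apilimod arrays it measured 1167 at 1 h, 1603 at 3 h, 2484 at 7 h and 1888 at 22 h, against 1118, 1164, 1526 and 1281 with R848 alone and 1088, 1233, 1599 and 1218 with API09. Unlike the levels of Atp6v1f and Atp6v1g1, its level with apilimod was highest at 7 h. The difference was 0.42 ± 0.09 at 3 h (adjusted p 0.0112), 0.66 ± 0.09 at 7 h (adjusted p 0.00024) and 0.59 ± 0.09 at 22 h (adjusted p 0.00043). With API09 alone as the control the 3 h value was 0.37 with an adjusted p of 0.087.

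Atp6v1e1 encodes the widely expressed E subunit of the stalks. Its intensity with apilimod was 1272 at 1 h, 1312 at 3 h, 1861 at 7 h and 2222 at 22 h, against 1217, 1290.3, 1417 and 1437 with R848 alone and 1235, 1231, 1422 and 1269 with API09. The 3 stimulated arrays were close at 1 and 3 h, and the apilimod array separated from them at 7 h. The difference was 0.06 ± 0.09 at 3 h (95% interval -0.15 to 0.26, adjusted p 0.850), 0.39 ± 0.09 at 7 h (0.18 to 0.59, adjusted p 0.0131) and 0.71 ± 0.09 at 22 h (0.50 to 0.92, adjusted p 0.00018). At 7 h the call was lost with R848 alone (0.39, adjusted p 0.0513) or API09 alone (0.38, adjusted p 0.0517) as the control.

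Whether the apilimod difference itself changed between hours was tested as an interaction. From 3 to 7 h it grew for 2 of the 8 genes, Atp6v1c1 by 0.55 ± 0.12 (adjusted p 0.0249) and Atp6v1d by 0.56 ± 0.12 (adjusted p 0.0260), where 2.24% of all genes were called in that direction. From 7 to 22 h it shrank for 2 of the 8, Atp6v1a (-0.47 ± 0.12, adjusted p 0.0211) and Atp6v1d (-0.47 ± 0.12, adjusted p 0.0221), where 8.77% of all genes were called in that direction. For Atp6v1d and Atp6v1a the apilimod arrays themselves were no lower at 22 h than at 7 h, 1705 against 1573 and 4544 against 4455. In the other probe set of Atp6v1a the apilimod array was lower at 22 h than at 7 h, 3611 against 3820. The controls were higher at 22 h than at 7 h, 805 and 809 against 526 and 541 for Atp6v1d, and 2666 and 2737 against 1902 and 1917 for Atp6v1a. With the third probe set of Atp6v1d by mean, its 7 to 22 h change was -0.39 and was not called. The 3 to 7 h calls were lost when either control array stood alone (adjusted p 0.186 and 0.176 for Atp6v1c1, 0.225 and 0.173 for Atp6v1d) and without either medium array of 0 h (0.061 and 0.054). Without the API09 array of 22 h 5 genes were called in that comparison, Atp6v1a (0.41, adjusted p 0.032), Atp6v1f (0.43, adjusted p 0.024) and Atp6v1g1 (0.39, adjusted p 0.049) besides. From 7 to 22 h Atp6v1e1 was called with API09 alone as the control (0.42, adjusted p 0.016).

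Apilimod and API09 were compared at the matched dose of 1 uM and at matched hours. API09 stayed near R848 alone. For the 8 genes the difference of API09 from R848 alone ran from -0.04 to 0.11 at 1 h, -0.07 to 0.08 at 3 h, -0.08 to 0.08 at 7 h and -0.19 to 0.10 at 22 h. At 22 h the median of all genes was itself -0.12 between these arrays. The difference of apilimod from API09 ran from -0.00 to 0.12 at 1 h, 0.09 to 0.93 at 3 h, 0.12 to 1.51 at 7 h and 0.35 to 1.06 at 22 h. The apilimod array was above both others for 6 of the 8 genes at 1 h and for all 8 at 3, 7 and 22 h.

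With 1 array an hour, these 3 pairs of arms were tested over the 4 hours together, with the hour as a block and p-values adjusted over all genes in each pair. The fit holds 1 difference per pair for all hours, so a difference that changes between hours adds to its spread. Between API09 and R848 alone the differences ran from -0.05 to 0.05, with 95% intervals reaching from -0.40 to 0.48, and limma called 0 of the 8 genes and 0% of all genes. At an unadjusted p under 0.05 it counted 0 of the 8 and 182 of all genes (1.48%). Between apilimod and API09, Atp6v1d differed by 0.91 ± 0.20 (95% interval 0.47 to 1.34), Atp6v1c1 by 0.74 ± 0.16, Atp6v1a by 0.70 ± 0.14 and Atp6v1b2 by 0.17 ± 0.07. The other 4 genes, Atp6v1f, Atp6v1g1, Atp6v1h and Atp6v1e1, differed by 0.33 to 0.49. Limma called 0 of the 8 here too (adjusted p 0.123 to 0.347) and 0% of all genes, while 8 of the 8 and 1613 of all genes (13.2%) had an unadjusted p under 0.05. Against R848 alone the count was again 0 of the 8 and 0% of all genes (adjusted p 0.148 to 0.472), with 7 of the 8 and 1588 of all genes (13.0%) at an unadjusted p under 0.05. Without the 1 h arrays, limma called 6 genes in each of the 2 apilimod comparisons, all but Atp6v1b2 and Atp6v1e1. Atp6v1d was then at 1.17 against API09 (adjusted p 0.0019) and at 1.21 against R848 alone (adjusted p 0.0017). The 0% of all genes belongs to the fit with the 1 h arrays, and the share without them is not given here.

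Set against medium of the same hour, 1 array against 1, most of the genes were above the unstimulated level with R848+apilimod. At 3 h 4 of 8 were higher, Atp6v1d by 0.93 ± 0.10, Atp6v1a by 0.62 ± 0.10, Atp6v1c1 by 0.52 ± 0.10 and Atp6v1h by 0.51 ± 0.10, where 6.91% of all genes were called higher. With quantile normalization Atp6v1b2 was also called at 3 h, lower (-0.27, adjusted p 0.036), and without the API09 array of 22 h Atp6v1f was called higher (0.26, adjusted p 0.036). With centred arrays 6 were higher, Atp6v1e1 (0.32, adjusted p 0.029) and Atp6v1f (0.35, adjusted p 0.027) besides. At 7 h 7 of 8 were higher, where the share of all genes was 12.3%, and Atp6v1d reached 1.83 ± 0.10 (3.55-fold) and Atp6v1h 1.06 ± 0.10. At 22 h the same 7 were higher, by 0.53 to 1.11, where the share was 21.5%. Atp6v1b2 was the gene not called, at -0.13 ± 0.10 at 7 h (adjusted p 0.403) and -0.07 ± 0.10 at 22 h (adjusted p 0.622). At 1 h limma called 0 of the 8 genes and 0.604% of all genes, and 0 of the 8 had an unadjusted p under 0.05. This comparison shares its apilimod arrays with the one against the R848 controls.

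With R848 without apilimod, calls among the V1 genes went in both directions. The R848 controls were set against the medium array of the hour. At 1 h 0 of the 8 genes were called by limma, also 0 at an unadjusted p under 0.05, with 0.702% of all genes called. At 3 h 2 were lower, Atp6v1b2 (1652 and 1588 against 2096; -0.37 ± 0.09, adjusted p 0.0157) and Atp6v1g1 (2592 and 2613 against 3243; -0.32 ± 0.09, adjusted p 0.0419), where 9.19% of all genes were called lower. At 7 h the same pair was lower, Atp6v1b2 at -0.27 ± 0.09 (adjusted p 0.0424) and Atp6v1g1 at -0.40 ± 0.09 (adjusted p 0.0074), where the share was 18.5%. Atp6v1h (1526 and 1599 against 1183; 0.40 ± 0.09, adjusted p 0.0057) and Atp6v1d (526 and 541 against 432; 0.29 ± 0.09, adjusted p 0.0258) were higher, where 11.3% of all genes were called higher.

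At 22 h Atp6v1c1 (3572 and 3625 against 5109; -0.50 ± 0.09, adjusted p 0.00070) and Atp6v1b2 (1691 and 1546 against 2065; -0.35 ± 0.09, adjusted p 0.0080) were lower than in medium, where 29.1% of all genes were called lower. Atp6v1e1 (1437 and 1269 against 1048; 0.36 ± 0.09, adjusted p 0.0093) and Atp6v1h (1281 and 1218 against 987; 0.33 ± 0.09, adjusted p 0.0102) were higher, where 16.5% were called higher. With 8 genes, counts of 2 in a direction are read as no more than these shares of all genes. Atp6v1h thus stood above medium with R848 at 7 and 22 h, while Atp6v1b2 stood below it at 3, 7 and 22 h. Over the 4 hours together, R848 alone against medium gave 0 of the 8 called by limma and 0.995% of all genes, with 1 of the 8 at an unadjusted p under 0.05, Atp6v1b2 at -0.22.

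**Figure D3:**
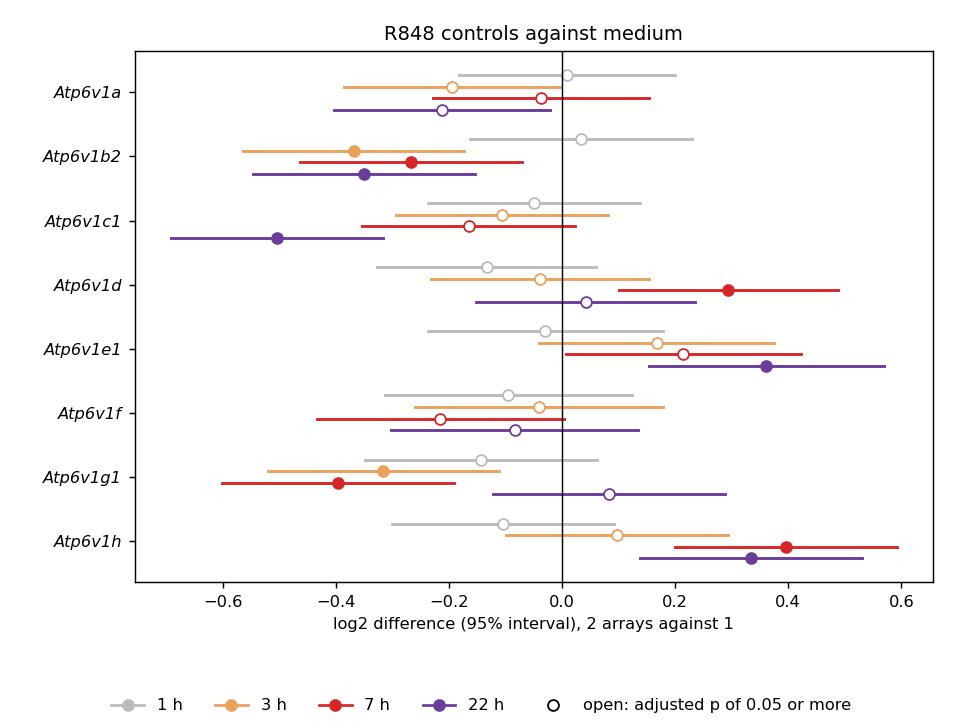
Log2 difference of the R848 controls from medium of the same hour (2 arrays against 1) for each V1 gene at 1, 3, 7 and 22 h, with 95% intervals from limma; open points have an adjusted p of 0.05 or more. Atp6v1b2 lies below 0 and Atp6v1h above 0 at 3, 7 and 22 h with the deposited scaling, and the largest value in size is -0.50, for Atp6v1c1 at 22 h.

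The R848 calls depended on single arrays, on the scaling and on the probe set. With the second probe set by mean, itself over 100, Atp6v1b2 was not called at 7 h (-0.20) or 22 h (-0.17). Nor were Atp6v1d at 7 h (0.19), Atp6v1g1 at 3 h (-0.23) and Atp6v1c1 at 22 h (-0.20). The calls of Atp6v1b2 at 3 h and Atp6v1g1 at 7 h held with it. With R848 alone as the control 0 of the 8 were called at 3 h (Atp6v1b2 -0.34, adjusted p 0.092; Atp6v1g1 -0.32, adjusted p 0.133), and without either medium array of 0 h Atp6v1g1 was lost at 3 h (adjusted p 0.066) and Atp6v1b2 at 7 h (adjusted p 0.076). With either control array alone the 7 h calls of Atp6v1d (adjusted p 0.099 and 0.061) and Atp6v1b2 (0.096 and 0.134) were lost. Without the API09 array of 22 h Atp6v1a at 22 h, -0.21 ± 0.09 with an adjusted p of 0.0668, became -0.23 and passed (adjusted p 0.041), as did Atp6v1e1 (0.21, adjusted p 0.024) and Atp6v1f (-0.22, adjusted p 0.031) at 7 h. Centring each array on its median moved the median of all genes at 22 h from -0.03 to 0.19. With that centring 1 of the 8 was lower at 3 h, 3 were higher and 0 lower at 7 h, and 2 were higher and 1 lower at 22 h. Atp6v1b2 was then at -0.19 at 7 h (adjusted p 0.092) and -0.13 at 22 h (adjusted p 0.181), and Atp6v1g1 at -0.32 at 7 h (adjusted p 0.072).

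Medium arrays gave the drift of unstimulated culture. At 1, 3 and 7 h limma called 0 of the 8 genes against 0 h, with 0.408%, 0.971% and 0.343% of all genes called, and 0 of the 8 had an unadjusted p under 0.05. The 2 medium arrays of 0 h differed by 0.12 or less on the log2 scale for each gene. At 22 h 4 genes were higher than at 0 h, where 11.2% of all genes were called higher. Atp6v1d measured 784 against 504 and 469.8 (0.67 ± 0.09, adjusted p 0.00050), Atp6v1f 2883 against 1946 and 1994 (0.55 ± 0.10, adjusted p 0.0032) and Atp6v1a 3132 against 2178 and 2251 (0.50 ± 0.09, adjusted p 0.0025). Atp6v1c1 measured 5109 against 4250.4 and 4159 (0.28 ± 0.09, adjusted p 0.0379). Both rotor genes were thus among those higher in medium at 22 h. Atp6v1e1 and Atp6v1h were each at -0.24 ± 0.09 (adjusted p 0.0957 and 0.0833), which did not pass. Without the API09 array of 22 h these 2 passed (adjusted p 0.017 and 0.029), and without either medium array of 0 h the call of Atp6v1c1 was lost (0.30, adjusted p 0.120, and 0.26, adjusted p 0.162). With centred arrays 3 of the 8 were higher and 1 lower, Atp6v1e1 at -0.23 (adjusted p 0.044). With the second probe set by mean, Atp6v1a (0.44) and Atp6v1c1 (0.27) were not called at 22 h against 0 h. Nor was Atp6v1c1 with the third (0.26).

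Over the 18 arrays the 8 genes did not all vary alike. Atp6v1d covered the widest range, 1.97 on the log2 scale, followed by Atp6v1f (1.45), Atp6v1h (1.32), Atp6v1a (1.31) and Atp6v1c1 (1.22). Atp6v1e1 and Atp6v1g1 each covered 1.07 and Atp6v1b2 0.75. The 21 pairs among the genes other than Atp6v1b2 had Pearson's r of 0.51 to 0.95 over the 18 arrays, with a median of 0.77, the highest being Atp6v1a with Atp6v1d. The 7 pairs with Atp6v1b2 had r of -0.16 to 0.23, with a median of 0.01. The points share arrays, hours and treatments, so these values describe the set and carry no test. Within the 7 genes, Atp6v1e1 and Atp6v1h went together at 0.86, and Atp6v1a with Atp6v1h stood at 0.62.

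The genes are represented by 20 probe sets above the filter, which serve as a check on the single probe set used for each. Of these, 15 had a mean intensity over 100, and all 15 were higher with apilimod than in both controls at 3, 7 and 22 h. The 3 probe sets of Atp6v1d differed by 1.53, 1.53 and 1.57 at 7 h, the 3 of Atp6v1c1 by 1.18, 1.38 and 1.44, and the 2 of Atp6v1a by 1.22 and 1.61. The 2 bright ones of Atp6v1b2 differed by 0.14 and 0.16, so the small value of that gene is shared by both. Atp6v1g1 had 0.81 and 0.72. The other 5 probe sets were dim, with means of 16.2 to 59.2, and differed by -0.08 to 0.39. Atp6v1f has a single probe set, Atp6v1h and Atp6v1e1 have a single bright one, and that of Atp6v1e1 is of the kind whose name marks probes that can match more than 1 transcript.

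**Figure D4:**
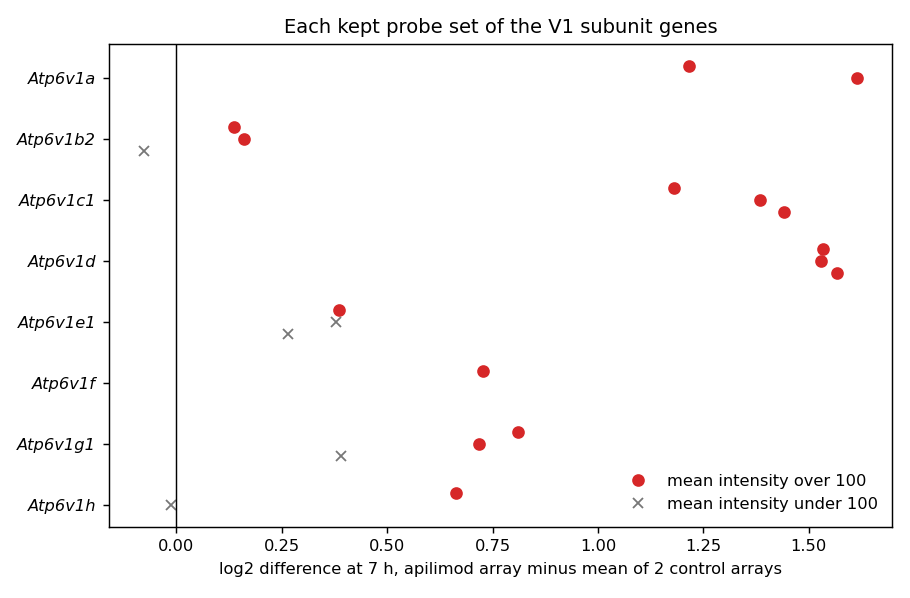
Log2 difference of R848+apilimod from the R848 controls at 7 h for each of the 20 probe sets of the V1 genes above the filter, with bright (mean over 100) and dim probe sets marked. The bright probe sets run from 0.14 for Atp6v1b2 to 1.61 for Atp6v1a.

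The other isoforms of V1 subunits, known from kidney, testis, brain and other tissues, were at low intensity. Atp6v1b1, the B isoform of intercalated cells, was between 6.52 and 9.54, below the filter level on all 18 arrays. Atp6v1c2 ran from 13.3 to 20.0, Atp6v1g2 from 13.8 to 21.4 and Atp6v1e2 from 32.6 to 48.8. These 3 entered the test and limma called 0 of them at 3, 7 or 22 h with apilimod, and 0 had an unadjusted p under 0.05.

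Most tested genes of the membrane sector were also higher by 7 h. Of 11 genes of the V0 sector and its accessory proteins, 10 were tested. Apilimod against the R848 controls gave 5 higher at 3 h, 8 at 7 h and 8 at 22 h, with none lower. Of all genes, 5.07%, 9.81% and 20.2% were called higher at these hours. Atp6v0d2, a d subunit isoform typical of osteoclasts and macrophages, was higher by 2.96 ± 0.20 at 7 h, and Tcirg1, the a subunit of osteoclasts and immune cells, by 1.06 ± 0.09. Atp6v0d1, the widely expressed d subunit, was higher by 0.73 ± 0.09, and Atp6v0a2, an a subunit, was at -0.39 ± 0.20 (adjusted p 0.247). The V0 median was 0.27, 0.45 and 0.58 at the 3 hours, beside 0.42, 0.77 and 0.73 for the V1 genes.

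Of 19 lysosomal hydrolase genes 16 were tested, and 4 were higher at 3 h, 12 at 7 h and 11 at 22 h, with 1 lower at 22 h. The shares of all genes called higher were 5.07%, 9.81% and 20.2%, and 14.3% were called lower at 22 h. Gla, alpha-galactosidase, was higher by 2.48 ± 0.08 at 7 h, Scpep1, a serine carboxypeptidase, by 1.30 ± 0.11, Ctsd, the protease cathepsin D, by 0.78 ± 0.09, and Neu1, a sialidase, by 0.71 ± 0.09. The gene lower at 22 h was Ppt1, a palmitoyl thioesterase (-0.69 ± 0.10, adjusted p 0.00034), named after its values were seen. The list medians at the 3 hours were 0.22, 0.55 and 0.46. With quantile normalization and with centred arrays the 7 h counts were 12 higher and 1 lower.

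Of 11 tested genes for assembly and regulation of the pump, 2, 3 and 6 were higher at 3, 7 and 22 h and none was lower, with medians of 0.07, 0.07 and 0.37, where 5.07%, 9.81% and 20.2% of all genes were called higher. With quantile normalization and with centred arrays 6 were higher and 1 lower at 22 h. At 7 h Wdr7, the rabconnectin-3 beta subunit, which helps V1 bind V0, was higher by 1.42 ± 0.10. Tmem199, an assembly factor of the endoplasmic reticulum and Golgi, was higher by 0.92 ± 0.10 and Dmxl1, a rabconnectin-3 alpha homologue, by 0.41 ± 0.10, while Tbc1d24 was at 0.36 ± 0.12 (adjusted p 0.051). Among 8 tested genes of the Ragulator and Rag GTPases, which dock mTORC1 at the lysosome and contact the vacuolar ATPase, 2, 3 and 4 were higher and none lower, with medians of 0.01, 0.08 and 0.34. Rragc was at 1.24 ± 0.09, Lamtor3 at 0.58 ± 0.09 and Rraga at 0.33 ± 0.10 at 7 h.

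Transcripts of the MiT/TFE factors themselves, known regulators of lysosomal genes, gave a different picture. Of 4 tested, 1 was higher and 2 lower at 3 h, where 5.07% of all genes were called higher and 4.12% lower. At 7 h 1 was lower, where 9.81% of all genes were called lower. Mitf was lower, at -1.29 ± 0.09 at 3 h and -1.39 ± 0.09 at 7 h (adjusted p 6.0e-07). Tfe3 was at -0.50 ± 0.10 at 3 h (adjusted p 0.0098) and -0.29 ± 0.10 at 7 h (adjusted p 0.0784). Tfeb was at 0.35 ± 0.08 at 3 h (adjusted p 0.0233) and -0.08 ± 0.08 at 7 h (adjusted p 0.597), and Tfec at 0.26 ± 0.15 at 7 h (adjusted p 0.291). At 22 h limma called 0 of the 4, with adjusted p of 0.0685 to 0.716 and 1 gene at an unadjusted p under 0.05, Tfec. Of all genes, 20.2% were called higher and 14.3% lower at that hour. With quantile normalization and with centred arrays, 2 were lower at 7 h, and 1 was higher and 1 lower at 22 h.

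Among 5053 other genes that varied by at least 1 log2 unit over the arrays, 10 followed the mean profile of the 8 V1 genes most closely, with Pearson's r over 18 arrays as the measure. Renbp had the highest r, 0.97, followed by Bhlhe41, Slc39a2 and Tecpr1 at 0.96, Atp6v0b, Lyst and Fam50a at 0.95, and Atg13, Stx4a and Rftn1 at 0.94. Renbp encodes a renin-binding epimerase, Slc39a2 a zinc transporter and Lyst a regulator of lysosome-related organelles. Tecpr1 and Atg13 belong to the autophagy machinery, and Atp6v0b is the c'' subunit of V0. At 7 h these genes were higher with apilimod than in the R848 controls by 0.66 for Atp6v0b to 2.62 for Slc39a2. The mean profile was itself highest on the apilimod arrays of 7 and 22 h, so this direction follows from how the genes were picked. Within the V1 set, r with the mean profile of the other members was 0.93 for both Atp6v1d and Atp6v1a and -0.01 for Atp6v1b2.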

How the data were processed

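RNA of RAW cells was amplified and hybridised to Affymetrix mouse arrays, per the labels. The deposited table gives each probe set a linear intensity on each array, which was read as already summarised and normalized by the authors. Limma is named without role in the submitters' processing notes, and the normalization is not given in the sources used here.

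Of 45101 probe sets, 34958 had 1 gene symbol in the platform annotation. Probe sets were kept if 3 or more arrays exceeded 18.1, the overall median, and each gene was read from the brightest of these, leaving 12257 genes. Tests used log2 of the intensity plus 16 in R 4.3.3 with limma 3.58.1, moderated variances and Benjamini-Hochberg adjustment over all genes, two-sided at 0.05. The code was tested on simulated data. Within hours each arm and hour had its own mean, but the R848 array and the R848+API09 array of the same hour shared 1. These pairs and the medium pair at 0 h supply the spread, and lone arrays are assumed to vary alike. The median standard error was 0.11 within hours and 0.10 in the fit over hours, which had the hour as a block.

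The members and gene lists were chosen with earlier results of these data known. Named genes are the 8 members, up to 4 genes per list with the largest absolute apilimod difference at 7 h, and the 10 most similar profiles. Alternatives were 1 or 64 added before the log, no filter or the 75th percentile, quantile normalization, centring, other probe sets or their mean, variances with a trend and robust estimation, either control array alone, arrays or hours left out, only the compared arms, and no hour block. Promoter windows are RefSeq's (GRCm38.p6).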

Additional observations from a re-analysis of the deposited data

Results flagged for a closer look

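In the fit within hours, limma called a change of the apilimod difference between hours for 3 of the V1 genes. From 3 to 7 h the difference from the R848 controls grew by 0.55 for Atp6v1c1 (SE 0.12, adjusted p 0.0249) and by 0.56 for Atp6v1d (SE 0.12, adjusted p 0.0260). From 7 to 22 h the change was -0.47 for Atp6v1a (SE 0.12, adjusted p 0.0211) and -0.47 for Atp6v1d (SE 0.12, adjusted p 0.0221). Each of these rests on 1 apilimod array and 2 control arrays an hour. The 3 to 7 h calls were lost with either control array alone, with centred arrays and without either medium array of 0 h. With the third probe set of Atp6v1d by mean, its 7 to 22 h change was -0.39 and was not called.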

How the results depend on the processing

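The apilimod counts at 7 and 22 h stayed within 6 to 7 and 7 to 8 of the 8 genes over 13 alternatives each, and at 3 h the count ran from 3 to 6, being 3 of 8, against 5, with API09 alone as the control. The growth of the apilimod difference from 3 to 7 h, 2 genes, became 0 with 1 added before the log, with centred arrays, with either control alone and without either medium array of 0 h, and 5 with trend and robust variances; leaving out an array thus gave 0 to 5. R848 against medium at 3 h, 2 genes, became 1 with 1 added, centred arrays or API09 alone, 0 with R848 alone or the mean of probe sets, and 1 without either medium array of 0 h. At 7 h 4 genes became 7 with trend and robust variances and 2 with either control alone, and at 22 h 4 became 2 with the mean of probe sets. Over 4 hours, 0 genes became 6 for apilimod against either control without the 1 h arrays, whose apilimod differences were near 0. For R848 against medium 0 became 1 without them (Atp6v1b2, -0.30). The share of all genes called without those arrays is not given here. Directions of called genes turned only with dim probe sets in place of the brightest: Atp6v1h to -0.013 at 7 h and -0.12 at 22 h with apilimod and, against medium at 22 h, -0.23 with R848 and -0.36 with R848+apilimod, and Atp6v1b2 to -0.12 with apilimod at 22 h and 0.20, 0.084 and 0.19 with R848 at 3, 7 and 22 h. Those probe sets had means of 16.2 and 20.6, near the filter level. The cause of the other changes was not tested. No paired analysis was possible because replicate numbers, which could pair samples, exist only for medium at 0 h; arms were matched by hour alone, through the hour block. Dim signal limits the other isoforms, and 1 apilimod array an hour limits every comparison.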
